A study of Homo sapiens with 6 samples.

Results

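The actins and tropomyosins are the proteins of which the thin filament is built. The gene set held 10 symbols (ACTA1, ACTC1, ACTA2, ACTG2, ACTB, ACTG1, TPM1, TPM2, TPM3 and TPM4), and a gene was measured by the array transcript cluster that carried its symbol and no other. This gave 9 of the 10 genes, 6 actins and 3 tropomyosins, out of 22448 genes measured on the arrays in all. TPM3 was not analysed here.

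RNA came from RH30, an established line of fusion-positive rhabdomyosarcoma, a childhood tumor of skeletal muscle lineage. RH30-SR MyoDΔ cells (3 arrays) expressed the IκBα super-repressor (SR), which blocks NF-κB, and had been edited at MYOD1 with CRISPR/Cas9. RH30-SR cells (3 arrays) expressed the same super-repressor and served as the control here, and the labels do not say whether they had received Cas9 or a guide RNA. All 3 MyoDΔ arrays came from 1 clone, and every p-value reflects the array-to-array spread alone, not differences among clones.

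Actin monomers polymerize into a double-stranded filament, and tropomyosin dimers run along its groove and govern which proteins can reach it. Skeletal muscle makes its sarcomeres from the striated actins ACTA1 and ACTC1, the second of which is the cardiac isoform and is also used by developing skeletal muscle, while ACTA2 and ACTG2 belong to smooth muscle and ACTB and ACTG1 form the cytoskeleton of every cell. Transcription of many of these genes depends on serum response factor (SRF), which binds the CArG box, and MyoD binds the E-box, CANNTG, as a dimer with an E protein.

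The MYOD1 transcript was lower in the edited clone. MYOD1 had log2 values of 6.95, 7.16 and 6.90 in RH30-SR MyoDΔ cells, against 9.09, 9.50 and 9.43 in RH30-SR cells, a log2 fold change of -2.34 ± 0.12 (SE, limma, adjusted p = 0.000102). Where the edit lay relative to the MYOD1 probes was not analysed here. A call followed the rule given below, which 7.01% of all genes met. Of 8 skeletal muscle lineage markers, which included MYOD1 itself, 6 were called lower (MYOD1 among them), MYF5 was called higher, and MYH3 was not called. Their mean log2 level ranged from 6.62 to 6.65 over the MyoDΔ arrays and from 8.05 to 8.26 over the RH30-SR arrays. The 7 smooth muscle markers had 0 calls, with mean levels of 5.49 to 5.53 in MyoDΔ cells against 5.39 to 5.51 in RH30-SR cells. The 6 measured cardiac markers also had 0 calls, with 5.02 to 5.04 in MyoDΔ cells against 5.01 to 5.09 in RH30-SR cells. Of 7 fibroblast markers LUM was called lower and POSTN higher. The mean level of the 7 was 4.17 to 4.19 in MyoDΔ cells against 4.21 to 4.41 in RH30-SR cells. Some group means lay below the median over all transcript clusters (4.295). In each group this held for 4 of the 7 fibroblast, 1 of the 8 skeletal muscle and 1 of the 6 cardiac markers. Of the 7 smooth muscle markers, 1 lay below it in MyoDΔ cells and 2 in RH30-SR cells. The markers below it included LUM (2.38 in MyoDΔ, 3.69 in RH30-SR), POSTN (3.43 and 2.42) and MYH3 (4.20 and 4.29). Whether any of the markers below it were above background was not tested. The part of any of the markers in the results on actins and tropomyosins was not tested. Array medians lay between 4.27 and 4.31.

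The windows upstream of the gene starts were read first, because the CArG box and the E-box are the known binding motifs of SRF and MyoD. RefSeq (GRCh38.p14) gave 16 windows of 250 bases for 9 of the 10 symbols, ACTB having no entry in the table used. A CArG box, counted only as CCWWWWWWGG with W as A or T, was found on either strand in 5 windows. These were 1 each of ACTC1, ACTA1, ACTG2, ACTG1 and TPM4, whereas 407 of 35116 windows over all genes held a match (1.16%). Sites that depart from this pattern, such as CCCTATATGG in 1 ACTA2 window, were not counted. The letters CANNTG were found in 9 of the 16 windows, beside 61.8% of all windows. A match of letters describes the window and does not show that a factor binds there. The 5 windows with a CArG box are shown, from 5′ to 3′ and ending at the base before the start, with CArG boxes and CANNTG in capitals.
ACTC1, chr15:34795550-34795799, minus strand: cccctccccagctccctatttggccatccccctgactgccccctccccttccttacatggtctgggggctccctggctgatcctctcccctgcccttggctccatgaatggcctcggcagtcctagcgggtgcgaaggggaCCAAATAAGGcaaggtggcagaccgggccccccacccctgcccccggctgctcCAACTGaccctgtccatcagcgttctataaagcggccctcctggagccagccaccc
ACTA1, chr1:229434095-229434344, minus strand: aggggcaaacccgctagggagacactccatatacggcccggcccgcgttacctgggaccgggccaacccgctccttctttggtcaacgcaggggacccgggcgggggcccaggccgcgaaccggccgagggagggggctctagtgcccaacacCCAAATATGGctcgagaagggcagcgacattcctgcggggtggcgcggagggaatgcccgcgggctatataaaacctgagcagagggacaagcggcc
ACTG2, chr2:73892758-73893007, plus strand: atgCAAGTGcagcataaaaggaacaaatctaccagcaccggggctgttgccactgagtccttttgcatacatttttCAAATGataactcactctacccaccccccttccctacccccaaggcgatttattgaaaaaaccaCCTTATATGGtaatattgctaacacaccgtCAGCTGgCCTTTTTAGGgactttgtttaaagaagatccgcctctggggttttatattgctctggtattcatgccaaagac
ACTG1, chr17:81512800-81513049, minus strand: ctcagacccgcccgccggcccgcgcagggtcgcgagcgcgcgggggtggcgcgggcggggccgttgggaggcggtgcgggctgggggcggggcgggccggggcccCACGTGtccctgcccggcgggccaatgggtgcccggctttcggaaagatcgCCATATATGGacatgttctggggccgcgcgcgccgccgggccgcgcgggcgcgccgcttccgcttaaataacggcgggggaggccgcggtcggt
TPM4, chr19:16067288-16067537, plus strand: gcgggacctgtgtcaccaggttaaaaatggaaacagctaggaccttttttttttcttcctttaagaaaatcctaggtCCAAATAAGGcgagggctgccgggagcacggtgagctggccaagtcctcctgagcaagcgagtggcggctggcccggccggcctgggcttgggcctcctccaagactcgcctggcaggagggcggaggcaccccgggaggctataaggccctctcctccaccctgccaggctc

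ACTC1, the gene that changed in the results that follow, had in the first of its 3 windows a CArG box at bases 109 to 100 before the start, 1 E-box (CAACTG) at bases 56 to 51, and TATAAA at bases 31 to 26. The ACTA1 window had the same layout for the CArG box (bases 97 to 88) and TATAAA (bases 30 to 25) but held no CANNTG. In the ACTG2 window lay 2 CArG boxes and 3 E-boxes, 1 of them CAGCTG, which occurred in 14.0% of all windows. ACTG1 held CACGTG at bases 145 to 140. The box of TPM4, at bases 173 to 164, had the same 10 letters as that of ACTC1. The single TPM1 window held neither a CArG box nor CANNTG, and TPM2 held CAGCTG at 2 places in 1 of its 2 windows without a CArG box.

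Among the 9 genes, 1 was called different between MyoDΔ and RH30-SR cells. That gene was ACTC1, which was lower. A call required an adjusted p below 0.05 in limma and a fold change of more than 25% (0.32 on the log2 scale) in either direction. A fall was thus measured as a fold, not as a percentage of the RH30-SR value. Over all genes 1573 were called (7.01%), 942 of them lower (4.2%) and 631 higher (2.81%). The median log2 fold change was -0.04 over the 9 genes and -0.01 over all genes. TPM1 passed the adjusted p but not the fold threshold, making 2 of 9 genes by adjusted p alone, beside 2234 genes overall (9.95%). The 3 values of each group did not overlap for 6 of the 9 genes and for 7677 of all genes (34.2%).

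**Figure D1:**
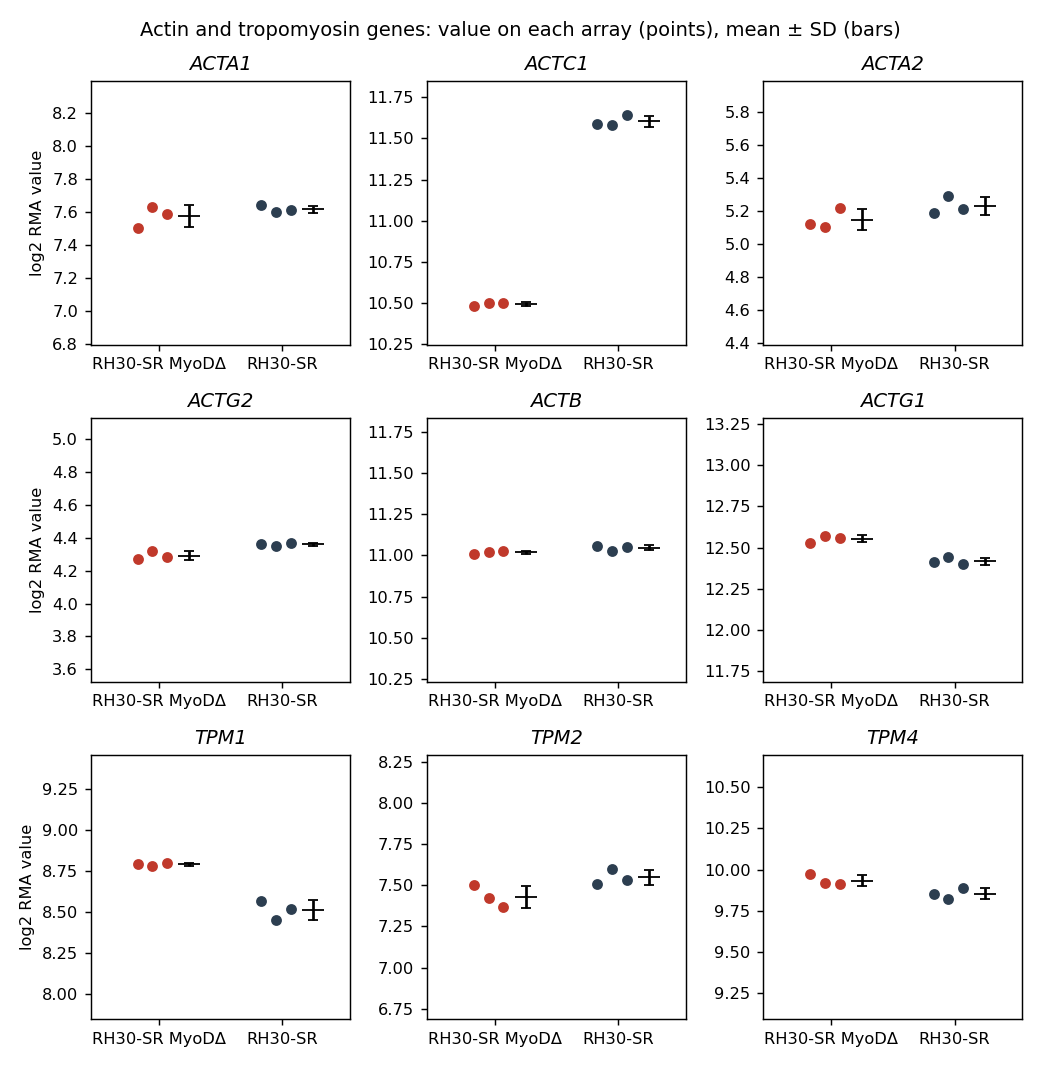
Log2 expression value of each actin and tropomyosin gene on each array (points), with the mean and SD of the 3 arrays beside them, RH30-SR MyoDΔ left of RH30-SR. Every panel spans the same height on the log2 scale. ACTC1 was near 10.49 in MyoDΔ cells and near 11.60 in RH30-SR cells, while the groups of the other 8 genes had log2 fold changes of at most 0.28 in size.

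ACTC1, the cardiac isoform of α-actin, had log2 values of 10.48, 10.50 and 10.50 in MyoDΔ cells, against 11.59, 11.58 and 11.64 in RH30-SR cells. The groups were far apart relative to their own spread, with means of 10.49 ± 0.01 in MyoDΔ and 11.60 ± 0.03 in RH30-SR (SD, n = 3 each). ACTC1 fell by 1.11 on the log2 scale (SE 0.05, 95% interval -1.22 to -0.998, adjusted p = 4.39e-05, limma), so that MyoDΔ cells had 2.16-fold less of this transcript. In bulk RNA, fewer cells expressing ACTC1 and less ACTC1 RNA per cell cannot be told apart. The fall ranked at place 106 in size among the 942 genes called lower.

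ACTA1, the skeletal isoform of α-actin and the main actin of adult muscle fibers, did not show this difference. Its log2 values were 7.50, 7.63 and 7.59 in MyoDΔ cells, against 7.64, 7.60 and 7.61 in RH30-SR cells. The groups overlapped, and the log2 fold change was -0.04 ± 0.05 (SE, 95% interval -0.17 to 0.09, adjusted p = 0.753). A fold change of 25% in either direction lay outside this interval.

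The pair was also compared within each array, as the difference between ACTC1 and ACTA1. It was 1.07 smaller on the log2 scale in MyoDΔ than in RH30-SR cells, with SDs of 0.06 in MyoDΔ and 0.04 in RH30-SR, and all 3 MyoDΔ arrays lay beyond all 3 RH30-SR arrays. The exact two-sided permutation test gave p = 0.10, the smallest that 3 arrays against 3 allow, and an adjusted p of 0.16 over the 8 pairs compared. Against ACTB, the cytoskeletal actin, the within-array difference of ACTC1 moved by -1.08 in MyoDΔ relative to RH30-SR cells (exact p = 0.10) and that of ACTA1 by -0.02 (exact p = 0.80).

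Transcripts of the smooth muscle actins were not called. ACTA2, which is also the actin of myofibroblast stress fibers, had log2 values of 5.12, 5.10 and 5.22 in MyoDΔ cells, against 5.19, 5.29 and 5.21 in RH30-SR cells. These groups overlapped, with a log2 fold change of -0.08 ± 0.06 (SE, 95% interval -0.22 to 0.05, adjusted p = 0.521). ACTG2, the enteric isoform of gut smooth muscle, had values of 4.27, 4.32 and 4.28 in MyoDΔ cells, against 4.36, 4.35 and 4.37 in RH30-SR cells. The groups did not overlap, but the log2 fold change was -0.07 ± 0.05 (SE, 95% interval -0.18 to 0.04, adjusted p = 0.504), and the values lay at the median over all transcript clusters (4.295). The deposited values hold no background measure, so whether ACTG2 was above background was not tested. Within arrays, the difference between ACTA2 and ACTG2 moved by -0.01 (exact p = 1.00).

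The cytoplasmic actins, which build stress fibers, cortex and protrusions, were not called either. ACTB, a frequent reference gene, had log2 values of 11.01, 11.02 and 11.03 in MyoDΔ cells, against 11.06, 11.03 and 11.05 in RH30-SR cells, with 1 value shared between the groups and a log2 fold change of -0.03 ± 0.05 (SE, 95% interval -0.13 to 0.08, adjusted p = 0.829). ACTG1 had values of 12.53, 12.57 and 12.56 in MyoDΔ cells, against 12.41, 12.44 and 12.40 in RH30-SR cells. All 3 MyoDΔ values of ACTG1 were above the RH30-SR values, with a log2 fold change of 0.14 ± 0.05 (SE, 95% interval 0.03 to 0.25). This did not pass the adjustment over all clusters (adjusted p = 0.167, limma). The ACTG1 fold change was smaller after quantile normalization (0.08, adjusted p = 0.513, limma) and after cyclic loess (0.06, adjusted p = 0.663, limma). Within arrays, the signed difference ACTB minus ACTG1 moved by -0.16 on the log2 scale in MyoDΔ relative to RH30-SR cells, without overlap between the groups (exact p = 0.10).

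Tropomyosin genes such as TPM1 and TPM2 give rise to muscle and non-muscle forms through alternative promoters or exons. A transcript cluster adds the forms of a gene together. TPM1, the α-tropomyosin gene, had log2 values of 8.79, 8.78 and 8.80 in MyoDΔ cells, against 8.57, 8.45 and 8.52 in RH30-SR cells. All 3 MyoDΔ arrays were above the RH30-SR arrays by more than the spread within either group. The log2 fold change was 0.28 ± 0.05 (SE, 95% interval 0.15 to 0.40), or 21.1%, with an adjusted p of 0.0263 in limma, so that TPM1 stayed below the fold threshold and was not called. Leaving out any 1 array other than RH30-SR replicate 1 moved its adjusted p above 0.05, to at most 0.102.

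TPM2, the β-tropomyosin gene, lay in the opposite direction and was not called. Its log2 values were 7.50, 7.42 and 7.37 in MyoDΔ cells, against 7.51, 7.60 and 7.53 in RH30-SR cells, without overlap by a margin of 0.01, and the log2 fold change was -0.12 ± 0.06 (SE, 95% interval -0.25 to 0.02, adjusted p = 0.34). TPM4, a tropomyosin of the non-muscle cytoskeleton, had values of 9.97, 9.92 and 9.91 in MyoDΔ cells, against 9.85, 9.82 and 9.89 in RH30-SR cells. Those groups did not overlap, with a log2 fold change of 0.08 ± 0.05 (SE, 95% interval -0.04 to 0.20, adjusted p = 0.465). Within arrays, TPM1 relative to TPM2 was 0.39 higher in MyoDΔ than in RH30-SR cells, and TPM1 relative to TPM4 was 0.20 higher, each with an exact p of 0.10 and an adjusted p of 0.16.

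**Figure D2:**
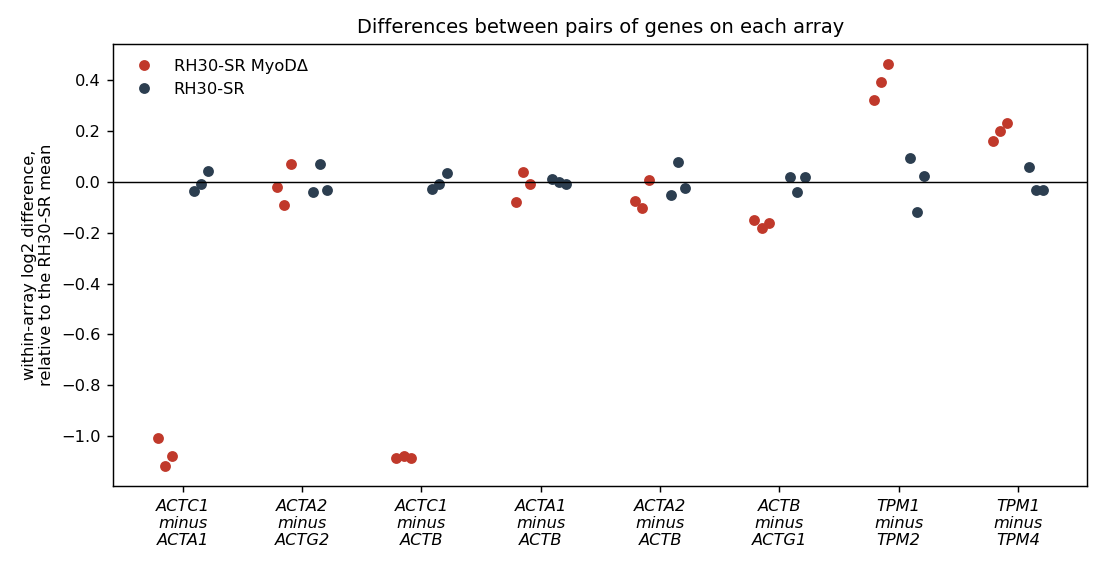
Difference between 2 genes on the same array, in log2 units, set to 0 at the RH30-SR mean of each pair. Points are arrays, RH30-SR MyoDΔ left of RH30-SR, and the pairs with ACTC1 lay 1.07 and 1.08 lower in MyoDΔ while ACTA1 minus ACTB and ACTA2 minus ACTG2 overlapped.

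For 7 of the 8 genes that were not called, the 95% interval lay inside a fold change of 25% in either direction. The exception was TPM1, whose upper bound of 0.40 passed it. Probes for actins can read near-identical copies, and this was not tested.

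**Figure D3:**
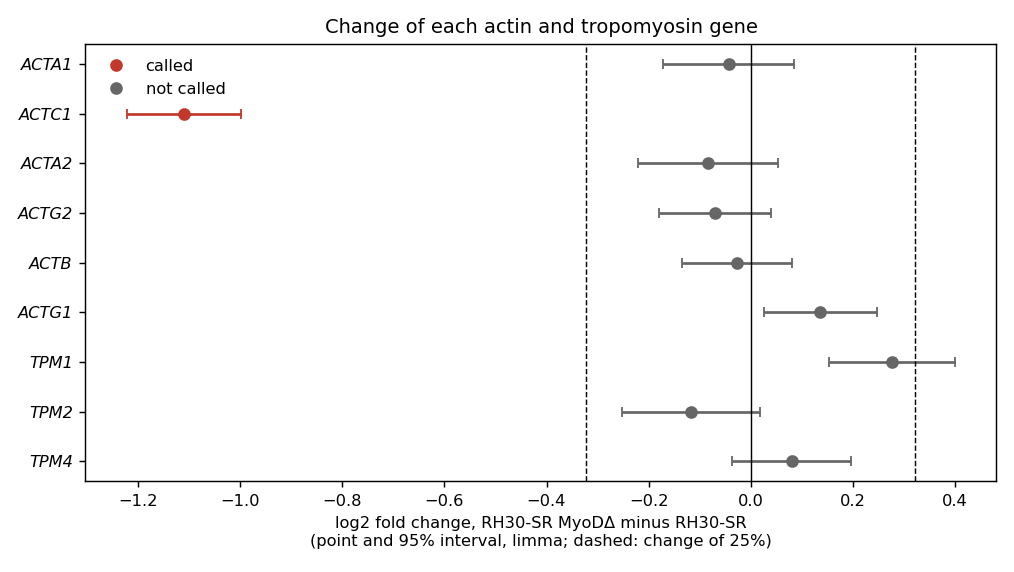
Log2 fold change of each gene, RH30-SR MyoDΔ minus RH30-SR, with its 95% interval from limma, and dashed lines at a fold change of 25% (0.32 on the log2 scale) in either direction. ACTC1 (-1.11) lay beyond the lines, and only the interval of TPM1 among the other 8 reached one.

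The genes whose values ran most like those of ACTC1 were sought among all 22448 genes, by the root mean square difference over the 6 arrays after centering each gene on its own mean. These were HERPUD1, a membrane protein of endoplasmic reticulum-associated degradation (0.0339 log2 units, log2 fold change -1.06), ARMCX2 (0.0350, -1.15) and C6orf15 (0.0402, -1.09). ACTC1 itself had a log2 fold change of -1.11, which the choice of these genes required them to match.

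Proteins that set the length and attachment of thin filaments included genes with large differences. Of 17 measured thin filament assembly genes, 2 were called lower, 1 higher and 14 were not called, where 7.01% of all genes were called. The median of the 17 log2 fold changes was -0.04. NEB, nebulin, the giant protein that runs along the skeletal thin filament, had log2 values of 3.78, 3.80 and 3.79 in MyoDΔ cells, against 8.35, 8.14 and 8.28 in RH30-SR cells, a log2 fold change of -4.47 ± 0.07 in the measured values (SE, adjusted p = 7.5e-07). The MyoDΔ values of NEB lay below the median over all transcript clusters (4.295), and whether they were above background was not tested, so that the size of this fall is not settled. XIRP1, an actin-binding repeat protein of muscle attachment sites, fell by 2.31 ± 0.09 (adjusted p = 2.83e-05). TMOD3, the broadly expressed tropomodulin that caps pointed ends, rose by 0.50 ± 0.07 (adjusted p = 0.00867), while the muscle tropomodulins TMOD1 and TMOD4 had log2 fold changes of -0.17 and -0.07 and the leiomodins LMOD2 and LMOD3 of -0.03 and -0.21, and none of these 4 was called.

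Troponins sit on tropomyosin and make the thin filament respond to calcium. Of 7 measured troponin genes, 3 were called lower, 0 higher and 4 were not called, beside 4.2% of all genes called lower. The called genes were TNNI1, TNNT1 and TNNC1, the slow skeletal isoforms, the last of which also serves the heart. Their log2 fold changes were -2.91 ± 0.08 for TNNI1, -2.07 ± 0.09 for TNNT1 and -1.91 ± 0.08 for TNNC1 (SE). TNNI1 had values of 5.95, 5.80 and 6.07 in MyoDΔ cells, against 8.85, 8.89 and 8.80 in RH30-SR cells. The fast isoforms TNNI2, TNNC2 and TNNT3 had log2 fold changes of -0.07, -0.10 and -0.06 and the cardiac TNNI3 of 0.00. TNNI3 had a mean of 4.96 in each group. Whether these 4 genes were above background, and so able to show a fall, was not tested.

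Among the partners of smooth muscle actin, 0 of 13 genes were called, beside 7.01% of all genes. The 13 log2 fold changes had a median of 0.00. The gene of smallest p was SYNPO2, synaptopodin-2 (-0.31 ± 0.06, adjusted p = 0.0324), which passed the adjusted p but not the fold threshold, and the next was CNN2, a calponin (0.24 ± 0.06, adjusted p = 0.0714). The means of SYNPO2, 3.17 in MyoDΔ and 3.48 in RH30-SR cells, lay below the median over all transcript clusters (4.295). Whether SYNPO2 was above background was not tested.

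Among factors that nucleate, bind and turn over actin, genes were called in both directions, where 7.01% of all genes were called. Of 24 measured nucleation genes, 1 was called lower (the formin DAAM2, -0.43 ± 0.05), 1 higher (the formin FMNL2, 0.42 ± 0.05) and 22 were not called. Of 18 measured genes of monomer binding and turnover, 2 were called lower and 1 higher. TMSB4X, thymosin β, which sequesters actin monomers, had log2 values of 8.96, 8.85 and 8.87 in MyoDΔ cells, against 9.44, 9.42 and 9.52 in RH30-SR cells (-0.57 ± 0.06, adjusted p = 0.00192). CAP2, a cyclase-associated protein of striated muscle, fell by 0.44 ± 0.05, and TWF1, twinfilin, rose by 0.40 ± 0.06 (adjusted p = 0.0104). The TWF1 call was lost without MyoDΔ replicate 2 (adjusted p = 0.0516) and without MyoDΔ replicate 3 (adjusted p = 0.0527). Of 16 measured genes for actin folding and processing, including the chaperonin and prefoldin subunits, 0 were called, and those of smallest p were PFDN1 (-0.17 ± 0.05, adjusted p = 0.141) and CCT4 (0.15 ± 0.05, adjusted p = 0.174).

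Cross-linking and attachment proteins were called in 5 of 23 measured cases, 3 lower and 2 higher, where 7.01% of all genes were called. PDLIM3, a PDZ and LIM protein of the muscle Z-disc, fell by 1.46 ± 0.06, and ACTN2, the α-actinin that anchors thin filaments there, by 0.60 ± 0.05. The mean of ACTN2 was 5.02 in RH30-SR and 4.42 in MyoDΔ cells, the second near the median over all transcript clusters (4.295). Whether ACTN2 was above background was not tested. MSN, moesin, which ties actin to the membrane, fell by 0.53 ± 0.05, and PLS3, a plastin that bundles filaments, rose by 0.48 ± 0.07 (adjusted p = 0.0102), a call that was lost without MyoDΔ replicate 3 (adjusted p = 0.0511). EZR, ezrin, a relative of moesin, rose by 0.44 ± 0.05.

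SRF and MRTFA, its cofactor that senses the pool of free actin, were not called. SRF had a log2 fold change of -0.02 and MRTFA one of -0.01. The relatives of MRTFA had log2 fold changes of -0.24 ± 0.05 (MRTFB, adjusted p = 0.035) and 0.28 ± 0.06 (MYOCD, adjusted p = 0.0321), both below the fold threshold. Of the 11 measured genes in this list, 3 were called lower, 1 higher and 7 were not called, beside 7.01% of all genes called. CSRP2, a LIM protein that associates with SRF, had values of 7.75, 7.58 and 7.58 in MyoDΔ cells, against 8.88, 8.84 and 9.03 in RH30-SR cells (-1.28 ± 0.08, adjusted p = 0.000183). CSRP1, its relative, fell by 0.50 ± 0.06, ELK1, a ternary complex factor, fell by 0.37 ± 0.07 (adjusted p = 0.0262), and FHL2 rose by 0.34 ± 0.05. The ELK1 call was lost with any 1 array left out other than RH30-SR replicate 1 (5 of 6 arrays, adjusted p of 0.0542 to 0.103) and with the replicate number as a block (adjusted p = 0.0706).

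Of 16 measured actin-related genes and actin copies, 0 were called, beside 7.01% of all genes. The gene of smallest p was ACTR3C (-0.27 ± 0.05, adjusted p = 0.0185), below the fold threshold, followed by ACTR5 (-0.20 ± 0.06, adjusted p = 0.0909).

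**Figure D4:**
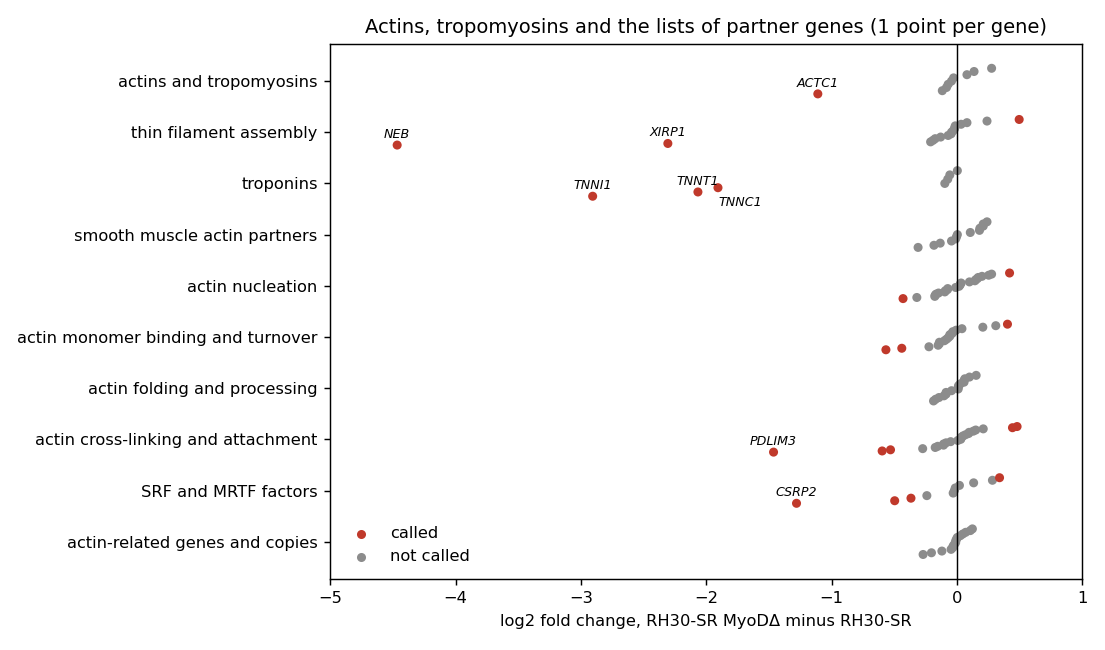
Log2 fold change, RH30-SR MyoDΔ minus RH30-SR, with 1 point for each measured gene of the actin and tropomyosin set and of the 9 lists of partner genes, called genes in red and those beyond a log2 value of 1 named. ACTC1 was the only member beyond 1, and NEB at -4.47 lay farthest from 0.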

How the data were processed

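Total RNA from triplicate cultures of RH30-SR MyoDΔ and RH30-SR cells was hybridised to Affymetrix Human Transcriptome arrays. The authors deposited log2 values, 1 per transcript cluster and array, made with RMA, which corrects the background, quantile-normalizes the arrays and summarizes probes by median polish. Their processing notes to GEO name RMA and Affymetrix Expression Console, and neither versions nor a genome build are given in the sources used here. Quantile normalization hides a change shared by most transcripts. The values ran from 0.91 to 13.82. No scan date or batch was given. The number of arrays limits the precision.

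Of 65535 transcript clusters, 22758 carried 1 symbol, 1389 several and 41388 none here, and a gene was represented by its cluster of highest mean over the 6 arrays. Updating symbols through RefSeq changed 0. Each measured actin and tropomyosin gene had 1 cluster. A second deposited table with 6 columns was not used, because its column names could not be matched to single samples.

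All clusters were fitted with lmFit and eBayes of limma 3.58.1 (R 4.3.3), MyoDΔ minus RH30-SR, with Benjamini-Hochberg adjustment over all clusters. A call required an adjusted p below 0.05 and a change over 25%. The script was tested on simulated data. Differences between pairs of genes within an array were compared with two-sided exact permutation tests. Promoter windows were searched on both strands for the CArG box (CCWWWWWWGG, W being A or T) and the E-box CANNTG. Also searched were the E-box form CAGCTG (each match of which is also an E-box match), the M-CAT core CATTCC and the TATA box TATAAA. The members and the gene lists were chosen with earlier results of these data known. Named in the text were all members, up to 4 called genes of each list by size of change or, with none called, the 2 of smallest p, MYOD1, and the 3 genes most like a member called beyond 2-fold; TMOD1, TMOD4, LMOD2, LMOD3, TNNI2, TNNC2, TNNT3, TNNI3, SRF, MRTFA, MRTFB, MYOCD, EZR, MYF5 and MYH3 were added after their values were seen. The replicate numbers did not pair the samples: deviations from the group means correlated at -0.049 to 0.034 between arrays of the same number and at -0.11 to 0.123 between arrays of different numbers. Alternatives covered the normalization, the filter on low values, the priors, array weights, the fold threshold, the adjustment and each array left out.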

Additional observations from a re-analysis of the deposited data

How the results depend on the processing

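ACTC1 was called under each of the 18 alternatives, with log2 fold changes of -1.17 to -1.09 and adjusted p from 6.88e-06 to 0.00183 (limma). No member changed sign under any of them. Only the normalizations, the array weights and each array left out could change a sign. The other alternatives left the fold changes of the members as they were. TPM1 ranged from 0.25 to 0.31 (adjusted p 0.00743 to 0.102). With the replicate block, 1 member (ACTC1, adjusted p = 0.00183) and 1165 genes were called. Leaving out 1 array gave 1110 to 1376 genes called. With no fold threshold, 2 members were called (TPM1, 0.28, being the second), as were 1 smooth muscle partner, 4 nucleation genes, 5 genes of monomer binding and turnover and 1 actin-related gene. With a fold over 2, 175 of all genes were called, with 0 in nucleation, 0 in monomer binding and turnover, 1 in cross-linking and 1 among SRF and MRTF factors. These counts differ because the threshold itself differs. Among the called partner genes, ELK1, TWF1 and PLS3 lost their calls with 1 array left out (5, 2 and 1 of the 6 arrays), and ELK1 also with the replicate block. Leaving out 1 array gave 0 to 1 smooth muscle partners called, the 1 being without RH30-SR replicate 3. Pair differences near 0 changed sign, and the cause was not tested: ACTA2 minus ACTG2 was 0.0033 with quantile normalization, 0.0008 with cyclic loess and -0.055 to 0.025 with 1 array left out, ACTA1 minus ACTB was 0.0278 with cyclic loess and -0.045 to 0.015 with 1 array left out, and ACTA2 minus ACTB was 0.011 with cyclic loess. The alternative with the second deposited table was not run, and the 2 planned pairs with TPM3 were not computed. No scaling moved the median of all genes by 0.1.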

Other observations

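The genes beside each member on the chromosome were looked at after the members' values were seen, taking the 5 measured genes on each side in RefSeq order. Beside ACTC1 on chromosome 15, 0 of 10 neighbors were called, with log2 fold changes of -0.24 to 0.12, against -1.11 for ACTC1. Beside TPM1, on the same chromosome, MGC15885 was called lower (log2 fold change -1.05) and LACTB, a mitochondrial protein next to TPM1, was called higher (0.47). The mean of MGC15885 was 4.66 in RH30-SR cells and 3.61 in MyoDΔ cells, the second below the median over all transcript clusters (4.295). Whether MGC15885 was above background in MyoDΔ cells was not tested. Beside TPM2, RMRP, the RNA component of RNase MRP, was called lower (-0.42, adjusted p = 0.018). No other member had a called neighbor among its 10.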
